A study of Mus musculus with 2 samples.

Results

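The tissue inhibitors of metalloproteinases are small secreted proteins, and the 3 measured here, Timp1, Timp2 and Timp3, were found by symbol among the 31053 genes listed for single cells of the mouse cervix. They were chosen by their measured levels per epithelial layer, in stroma and per library, with earlier results of these data known, so those levels are a description and carry no test. Cells came from ovariectomised C57BL6/129 females aged 7 to 8 weeks that had recovered for 2 weeks, in 2 libraries that each pooled 9 mice. The control library came from mice left untreated for the 15 days of the experiment. The progesterone library came from mice injected subcutaneously with estradiol (E2, 100 µg a day in corn oil) on 2 days and then given a 25 mg progesterone pellet made to last 21 days, at about 1 mg a day. Progesterone, estradiol, the injections and the pellet cannot be told apart, and removal of the ovaries is shared by both groups. Since each group is a single library, nothing measures the spread between replicates, and the groups cannot be tested against each other. All intervals are exact 95% intervals, and they and the limits given for 0 counts cover counting error only.

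TIMP proteins block the active site of matrix metalloproteinases (MMPs), the enzymes that cut collagens, laminins and other matrix proteins. TIMP3 differs from its relatives in that it binds to the extracellular matrix, and it also blocks several enzymes of the ADAM and ADAMTS families, among them the sheddase ADAM17. TIMP2 takes part in the activation of pro-MMP2 by the membrane enzyme MMP14, besides acting as an inhibitor, and TIMP1 is a soluble inhibitor that many cells make on stimulation. The cervix is lined by stratified squamous epithelium, with a basal layer on the matrix and suprabasal layers above it, and by mucus-producing luminal epithelium, over a stroma rich in collagen.

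In GRCm38 coordinates, Timp1 (ENSMUSG00000001131) lies at chrX:20870166-20874735 on the plus strand, inside an intron of Syn1 on the opposite strand. Timp2 (ENSMUSG00000017466) lies at chr11:118301069-118355740 on the minus strand and holds Cep295nl on the same strand, with no overlap between exons. Timp3 (ENSMUSG00000020044) lies at chr10:86300372-86349506 on the plus strand inside Syn3, which runs the other way and has 1 exon within Timp3. That exon overlaps an exon of Timp3. The stretches just before the annotated starts of Timp3, the member with the largest difference between the libraries, and of Timp1, the member that was lower with progesterone, are shown 5′ to 3′ from RefSeq (GRCm38.p6), both on the plus strand. Capitals mark CACCC, or GGGTG where it is on the other strand, in Timp3, and the GC box GGGCGG, here read on the other strand, in Timp1.
Timp3, chr10:86300162-86300371: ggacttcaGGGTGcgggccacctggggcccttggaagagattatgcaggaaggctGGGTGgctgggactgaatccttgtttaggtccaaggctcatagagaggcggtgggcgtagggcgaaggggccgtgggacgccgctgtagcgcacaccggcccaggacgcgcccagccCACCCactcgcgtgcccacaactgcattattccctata
Timp1, chrX:20869916-20870165: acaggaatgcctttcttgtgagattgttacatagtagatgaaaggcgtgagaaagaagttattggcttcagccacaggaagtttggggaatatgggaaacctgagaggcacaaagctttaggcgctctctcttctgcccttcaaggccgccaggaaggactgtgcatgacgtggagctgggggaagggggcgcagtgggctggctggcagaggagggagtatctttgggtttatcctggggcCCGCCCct
Of 32851 promoter windows of 300 bases (250 before to 50 after the start), 57.5% held CACCC and 35.7% held GGGCGG on either strand, so both motifs are common. CACCC occurred 3 times in the Timp3 window. The steroid receptor half-site TGTTCT, present in 19.0% of windows, was in none of the 3 Timp windows, which says only that these letters are not in them.

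The control library held 5368 barcodes with 21658684 UMIs (unique molecular identifiers, each standing for 1 captured transcript) and the progesterone library 10853 barcodes with 44811069 UMIs. After filtering, 4579 control cells (median 3733 UMIs) and 8541 progesterone cells (median 4151 UMIs) were analysed, of which 12 in each library shared a barcode with a cell of the other. Cells were clustered without the Timp genes, without the proteases and partner genes described below and without Krt10 and Krtdap. Clusters were named from marker genes as basal squamous-like (1394 control and 3379 progesterone cells), suprabasal squamous-like (469 and 1077), luminal-like (525 and 2058), fibroblast-like (78 and 115), blood endothelium-like (39 and 56), macrophage-like (266 and 288) and neutrophil-like (339 and 444). These names were rebuilt from the counts and depend on the clustering. A further 1426 control and 973 progesterone cells stayed unnamed. Levels are UMIs per 1000000 UMIs of a class (CPM). They come from 3′ tags, of which a transcript gives 1 whatever its length.

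Over all analysed cells, with no cell class involved, Timp3 stood at 10.2 CPM (205 UMIs) in the control library and 84.3 CPM (3210 UMIs) in the progesterone library. Its ratio was 8.27 (7.18 to 9.57). Timp2 stood at 56.7 CPM (1141 UMIs) and 132 CPM (5035 UMIs), a ratio of 2.33 (2.18 to 2.49). Timp1 went the other way, from 7.61 CPM (153 UMIs) to 3.60 CPM (137 UMIs), a ratio of 0.473 (0.373 to 0.599). So Timp3 and Timp2 were higher and Timp1 lower in the progesterone library. The 2 libraries also differed in their mix of cells, since luminal-like cells were 11.5% of control and 24.1% of progesterone cells, and a change of mix and a change within cells cannot be told apart in these sums.

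The members differed in how their UMIs were spread over the cell classes. Of the Timp3 UMIs in control cells, 43.9% were in basal squamous-like, 27.3% in fibroblast-like, 11.7% in blood endothelium-like and 0.488% in suprabasal squamous-like cells. With progesterone 43.5% were in suprabasal squamous-like and 26.0% in luminal-like cells, and the basal and fibroblast-like shares were 18.8% and 5.02%. The suprabasal and luminal-like shares were thus larger in the progesterone library. The shares of UMIs are shares of a larger total in libraries with other class sizes, and a smaller share is not a lower level in a class. Timp2 UMIs were most often luminal-like in both libraries, with 42.4% and 60.5%, and Timp1 UMIs most often basal, with 56.2% and 60.6%.

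**Figure D1:**
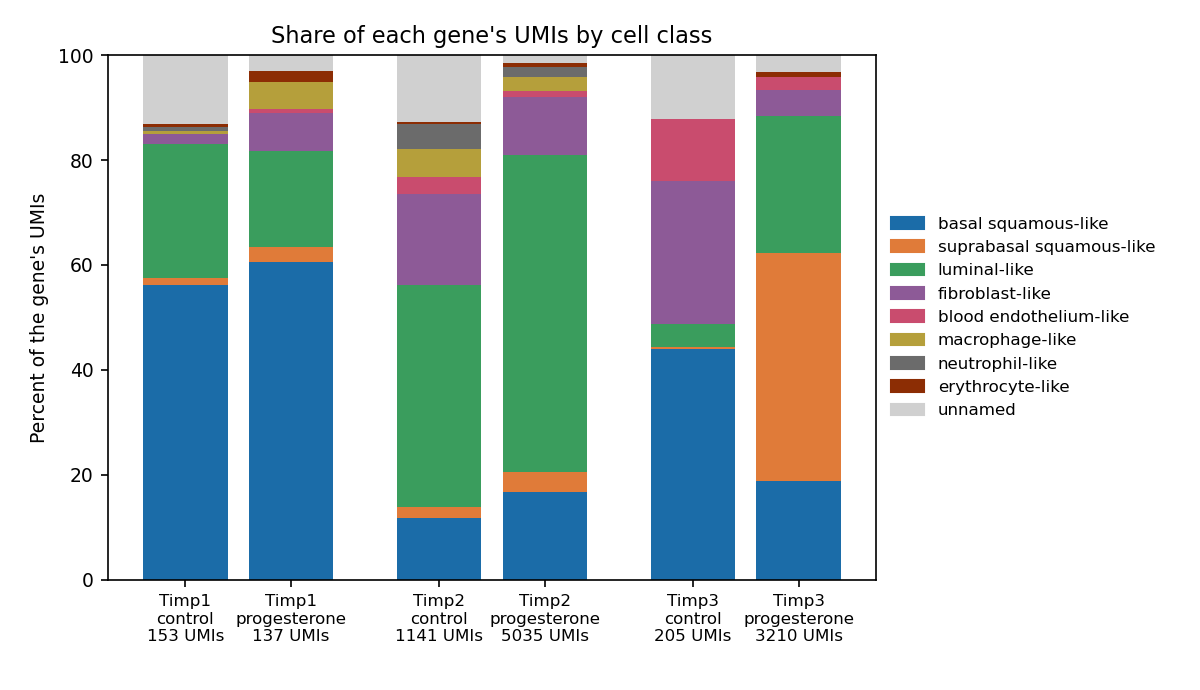
Share of each gene's UMIs (percent, vertical axis) by cell class, 1 bar per gene and library, with the number of UMIs under each bar. The suprabasal squamous-like segment of Timp3 takes 0.488% of the control bar and 43.5% of the progesterone bar, while the Timp1 bars are mostly basal in both libraries.

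In suprabasal squamous-like cells, the layers above the basal one, Timp3 was at 0.304 CPM (0.008 to 1.69), a single UMI in 469 cells, in the control library and at 205 CPM (195 to 216), 1397 UMIs in 1077 cells, in the progesterone library. The ratio was 675 (121 to 26693), wide because it rests on that 1 control UMI. It was the highest ratio of 10531 genes with at least 20 UMIs in this class, of which 23.1% were 2-fold or more higher and 5.65% 2-fold or more lower. The median log2 ratio of all these genes was 0.38, and removing the most abundant genes from the scaling moved log2 ratios by 0.20, both small beside the 8.81 of Timp3. Timp3 was chosen by these levels and reached 20 UMIs only through its progesterone cells, as it did in cluster 0 and in luminal-like cells. Its rank among genes in these groups is therefore a description and no support. At equal depth, with every cell thinned to 2000 UMIs, a Timp3 UMI was found in 0 of 378 control cells, which allows a share of up to 0.794% (3 counts over the cells, the limit used here wherever none was seen), and in 22.9% (20.4 to 25.6) of 1043 progesterone cells. The 0 depends on the random draw, since another draw from the same control cells kept 1 Timp3 UMI. Without thinning, the median depths were 6461 and 5975 UMIs and 1 of 469 and 395 of 1077 cells held one. Macrophage-like cells, which should lack Timp3, had a UMI in 0 of 59 and 0 of 119 cells after thinning (median depths before it 1431.5 and 1485.5), which allows up to 5.08% and 2.52%. A minority of the progesterone cells carried the level, since 70 of 1077 cells held at least as many Timp3 UMIs as all others together, while the 10 highest held 13.8% and the highest cell 26 UMIs.

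The 2 libraries did not fill this class alike. It joins a cluster of 152 control and 1077 progesterone cells (cluster 0) with a cluster of 317 control cells led by the stress keratins Krt16 and Krt6b that had no progesterone cell (cluster 8). Cluster 8 had no Timp3 UMI. Within cluster 0 alone Timp3 was at 1.52 CPM (1 UMI) against 205 CPM, a ratio of 135 (24.2 to 5338), again the highest of its 10209 genes, of which 9.83% were 2-fold or more higher and 6.20% lower. The progesterone cells of the class carried less of the 10 suprabasal markers summed, 6437 against 23346 CPM (15861 in the control cells of cluster 0), with Sprr3 at 0, and more of the 9 luminal markers, 2267 against 610 CPM (1264 in cluster 0). Fibroblast markers summed to 10.0 CPM with 0 of 7 at 0 in the progesterone cells and to 1.52 CPM with 4 of 7 at 0 in the control cells. The part of these markers' cells in the result was not tested.

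The class is also sensitive to how cells are grouped. A stricter cell filter left 17 progesterone cells in it and a log2 ratio of 1.56 for Timp3, and scaling genes to unit variance left 35 and 2.65. Other clustering seeds placed 256, 8 and 9 progesterone cells in it, so that no ratio was computed for the last pair. When cells were instead sorted by keratin UMIs with no clustering (Krt13 or Krt4 for suprabasal), Timp3 was at 3.01 CPM (12 UMIs, 541 cells) in control and 182 CPM (599 UMIs, 467 cells) in progesterone suprabasal cells, a log2 ratio of 5.86. The direction was the same in all 11 alternatives that gave a ratio, while its size was not fixed by these data.

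**Figure D2:**
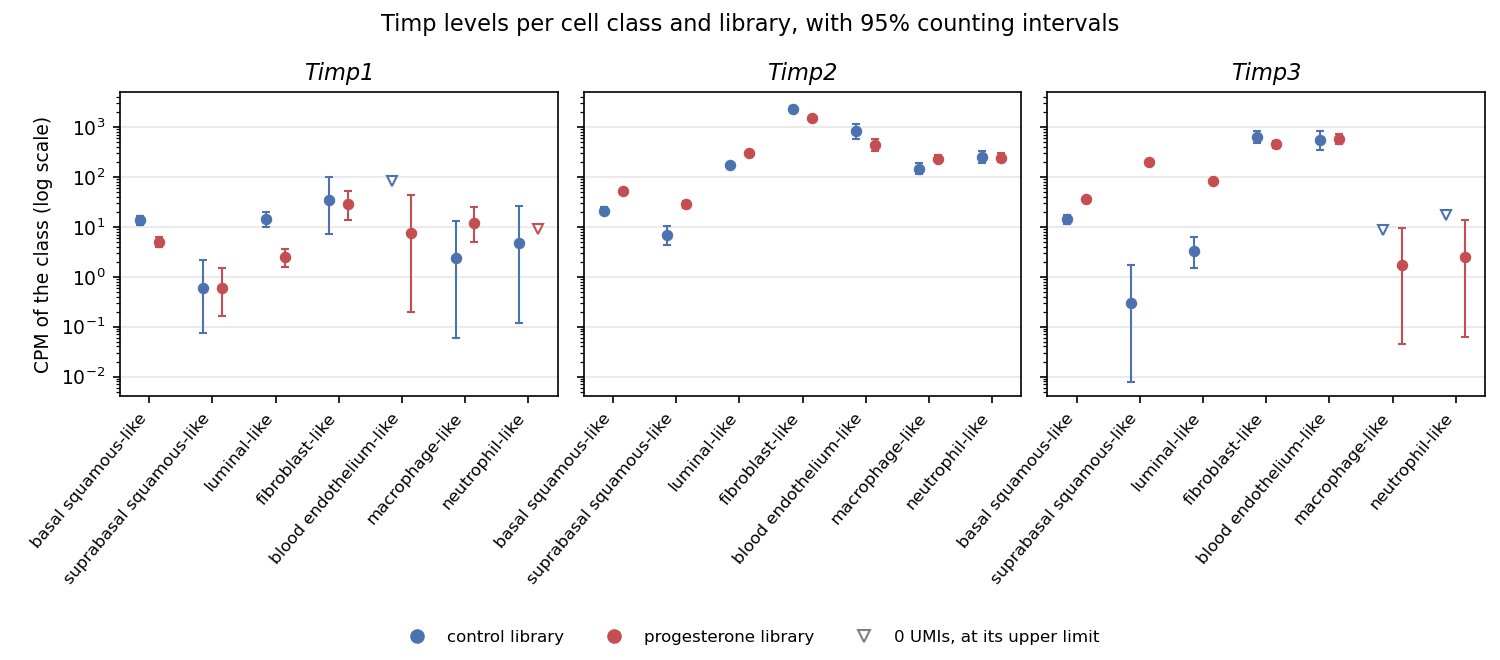
Levels of the 3 genes (CPM, log axis) in 7 cell classes, 1 point per library with its 95% counting interval, open triangles marking 0 UMIs at the upper limit. Timp3 differs most between the libraries in suprabasal squamous-like cells (0.304 and 205 CPM) and luminal-like cells (3.29 and 82.8 CPM), and least in blood endothelium-like cells (553 and 591 CPM).

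By these classes the order of the layers differed between the libraries. In the control library Timp3 was 47.2-fold (8.26 to 1885) lower in suprabasal than in basal squamous-like cells. In the progesterone library it was 5.56-fold (5.05 to 6.13) higher. Timp2 was lower above the basal layer in both libraries, by 3.06-fold and 1.81-fold, and Timp1 by 22.6-fold and 8.61-fold. For Timp2 in the control library the direction turned with keratin sorting, at 23.3 CPM (18.8 to 28.6) in suprabasal and 12.6 CPM (10.5 to 14.9) in basal cells, and control cluster 0 at 22.8 CPM was not below the basal class at 21.4 CPM. The size of both Timp3 differences depended on the grouping. Keratin sorting gave 3.01 CPM in suprabasal and 5.48 CPM in basal control cells, a log2 ratio of -0.82 in place of -4.98, and 182 and 37.9 CPM in progesterone cells. With the libraries clustered apart the progesterone log2 ratio was 0.73 in place of 2.48, and its direction turned under the stricter filter and under unit variance, where 17 and 35 progesterone cells made up the class.

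Krt10 and Krtdap, an intermediate filament protein and a secreted protein of differentiating keratinocytes, were used to order the progesterone suprabasal squamous-like cells after thinning to 2000 UMIs. In the class as a whole Krt10 was at 651 CPM in control and 442 CPM in progesterone cells, and Krtdap at 2372 and 547 CPM. Of 16 squamous keratin and differentiation genes, 14 had 20 UMIs there, and 2 were 2-fold or more higher (Krt4 and Krt15) and 8 lower with progesterone, beside 23.1% and 5.65% of all genes. In cluster 0 alone 1 was higher and 7 lower, beside 9.83% and 6.20% of all genes. Krtdap was at 1066 and 547 CPM there and no longer among the lower genes. Of 1043 cells (34 shallower ones were left out), 582 had no UMI of either gene. Timp3 was at 223 CPM (197 to 252) in these, 243 CPM (202 to 290) in the 249 cells with 1 to 2 UMIs, 237 CPM (177 to 309) in the 112 cells with 3 to 5, and 160 CPM (109 to 226) in the 100 cells with 6 or more. The ratio of the last step to cells without either gene was 0.716 (0.480 to 1.04), an interval that includes 1. With the cells in 3 equal ranks the values were 230, 216 and 225 CPM, a ratio of highest over lowest of 0.978 (0.779 to 1.23). Along these ranks the squamous keratin Krt13 went from 2563 to 3615 CPM and the luminal keratin Krt8 from 210 to 166 CPM.

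The 2 markers were also taken apart. By Krt10 alone, Timp3 was at 225 CPM in 810 cells without a UMI, 276 CPM in 147 cells with 1 to 2, 136 CPM (70.5 to 238) in 44 cells with 3 to 5 and 95.2 CPM (41.1 to 188) in 42 cells with 6 or more. The ratio of the last to the first was 0.423 (0.181 to 0.842), on 8 Timp3 UMIs. By Krtdap alone, the values were 227, 213, 211 and 262 CPM, and the ratio 1.16 (0.707 to 1.80), on 21 UMIs in 40 cells. With 3 equal ranks by Krt10 the ratio of highest over lowest was 0.816 (0.650 to 1.02), an interval that includes 1. The difference between the 2 orders was not tested. Across other groupings the log2 ratio of highest over lowest rank by both genes, here -0.03, ran from -1.45 (unit variance) to 0.39 (resolution 2). The control cells held 1 Timp3 UMI in all and could not be ordered.

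**Figure D3:**
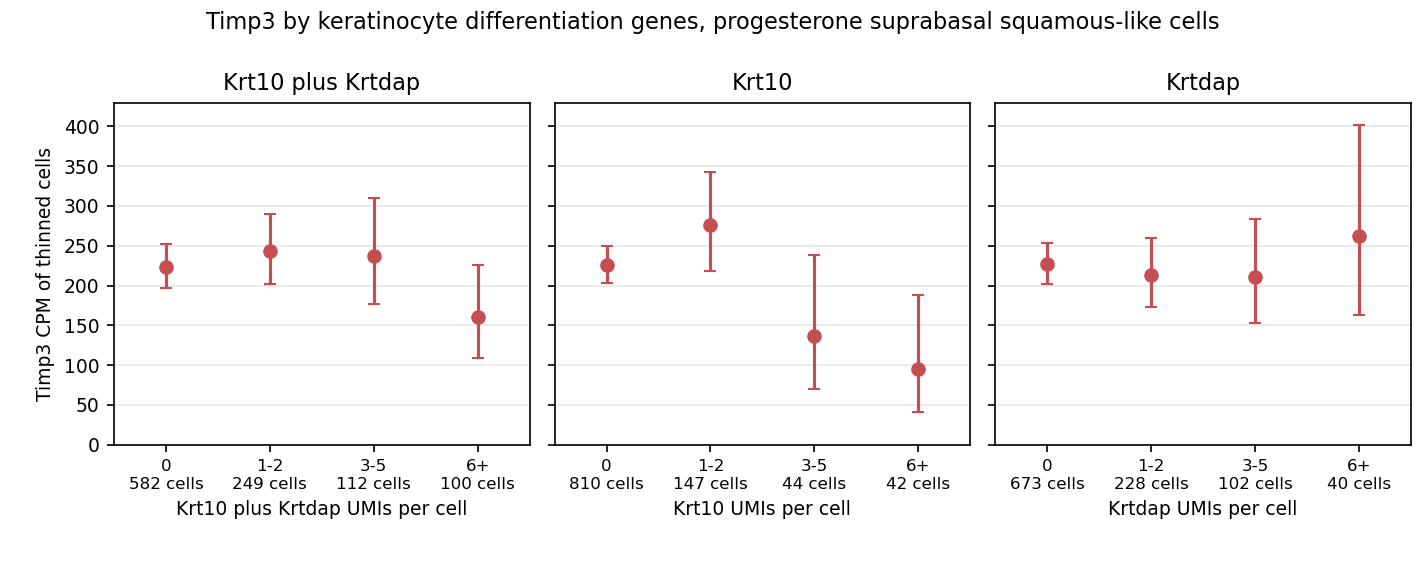
Timp3 (CPM of cells thinned to 2000 UMIs, vertical axis) in progesterone suprabasal squamous-like cells by UMIs of Krt10 plus Krtdap, Krt10 or Krtdap, with 95% counting intervals and cell numbers. By both genes together the first 3 points lie between 223 and 243 CPM and the last at 160 CPM, and by Krt10 the last is at 95.2 CPM.

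In luminal-like cells Timp3 was at 3.29 CPM (1.50 to 6.25; 9 UMIs) in the control library and 82.8 CPM (77.2 to 88.6; 834 UMIs) in the progesterone library. The ratio was 25.2 (13.2 to 55.2), rank 63 of 11592 genes, of which 19.4% were 2-fold or more higher and 7.49% lower. After thinning, 0.713% of 421 control and 9.57% of 1714 progesterone cells held a Timp3 UMI. Clusters of the class were unevenly filled, and Timp3 was uneven among them. In the progesterone library it was at 142 CPM (607 UMIs) in the 727 cells of a cluster led by the mucus genes Agr2 and Muc5b, but at 19.1 CPM (70 UMIs, of which 74.3% were in 10 cells) in the 840 cells of a cluster led by Clca1 and Olfm4. These clusters held 7 and 1 control cells, so they give no comparison.

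Both luminal-like clusters with at least 50 cells in each library had more Timp3 with progesterone. In a cluster led by Postn and Upk1a (85 and 271 cells) it was at 5.60 CPM (1 UMI) and 186 CPM (125 UMIs), a ratio of 33.3 (5.86 to 1324), in a comparison where 8.37% of genes were 2-fold or more higher and 14.7% lower, and 10 cells held 56.8% of the 125. In a cluster led by Prap1, whose top 10 genes also held the late squamous genes Lce3a, Lce3b, Lce3c, Lce3f and Crct1 beside the luminal keratin Krt8 (139 and 159 cells), it was at 0 UMIs in control and 28.0 CPM (28 UMIs) with progesterone, at least 5.79-fold higher against a floor of 3 counts in the control cells, where 13.7% of genes were higher and 9.86% lower, and 10 cells held 75.0% of the 28. A cluster that stayed unnamed between suprabasal and luminal markers (1049 and 77 cells) gave 1.76 CPM (10 UMIs) and 60.0 CPM (35 UMIs), though 10 cells held 97.1% of those 35. In that cluster 6.09% of genes were 2-fold or more higher and 5.82% lower. Another unnamed cluster (cluster 12, 157 and 675 cells) gave 14.4 CPM (3 UMIs) and 15.8 CPM (19 UMIs), where 6.99% of genes were higher and 21.5% lower.

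In basal squamous-like cells, which carry the stem cells of the squamous epithelium, Timp3 was at 14.3 CPM (11.5 to 17.6; 90 UMIs) without and 36.9 CPM (34.0 to 39.9; 605 UMIs) with progesterone. The ratio of 2.57 (2.06 to 3.25) stood at rank 593 of 12014 genes, of which 8.82% were 2-fold or more higher and 6.63% lower. The basal clusters did not move as one. Timp3 was higher with progesterone in the cluster led by cell cycle genes (15.8 and 48.3 CPM, ratio 3.06, 1.70 to 5.98) and in cluster 2, led by Krt15 (19.1 and 36.7 CPM, ratio 1.92, 1.29 to 2.95). In the cell cycle cluster 10 of 222 progesterone cells held 61.6% of the 86 UMIs, 16 of them in 1 cell. In cluster 2 10 progesterone cells held 36.8% of 114. Timp3 was lower in cluster 18, led by Apoe and Ccnd2, at 88.0 CPM (20 UMIs) and 38.5 CPM (187 UMIs), a ratio of 0.438 (0.275 to 0.733), where 9.17% of genes were 2-fold or more higher and 15.4% lower. The control cells of that cluster were shallower (median 1255 against 4340.5 UMIs), and the share of its cells with a Timp3 UMI was not lower with progesterone, at 3.70% of 27 and 6.98% of 988 cells after thinning and 11.3% and 13.1% without it. In the other two basal clusters with 50 cells of each library (clusters 7 and 10) the intervals of the ratio included 1. Genes 2-fold or more higher and lower were 4.83% and 6.11% of those tested in cluster 2, 7.7% and 5.24% in the cell cycle cluster 4, 9.37% and 11.2% in cluster 7, and 5.59% and 8.54% in cluster 10. Over the 5 shared clusters the log2 ratio was 0.55 in place of 1.36, and averaging each cell's own CPM gave 0.28.

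**Figure D4:**
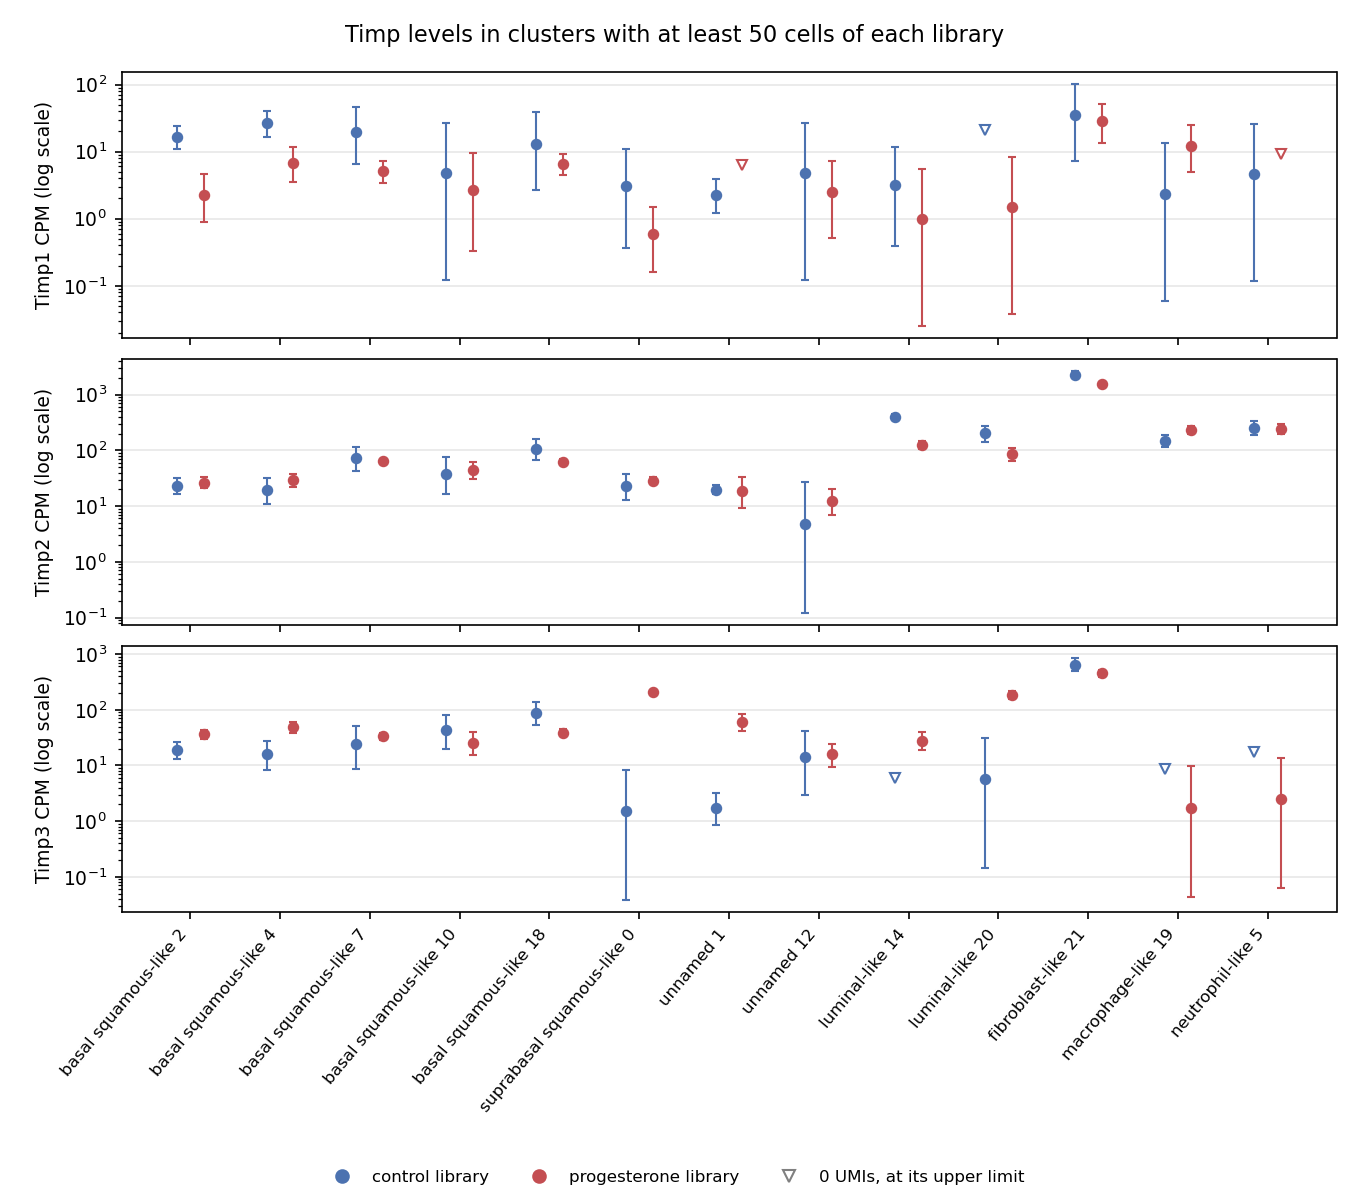
Levels of the 3 genes (CPM, log axes) in each cluster with at least 50 cells in both libraries, 1 point per library with its 95% counting interval, open triangles marking 0 UMIs at the upper limit. In suprabasal cluster 0 Timp3 is at 1.52 and 205 CPM, while in basal cluster 18 it is at 88.0 and 38.5 CPM; Timp2 is lower with progesterone in both shared luminal-like clusters.

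Stromal cells had the most Timp3 by CPM in the control library. Fibroblast-like cells, the collagen-producing cells of the stroma, were at 649 CPM (490 to 843; 56 UMIs) and 454 CPM (386 to 529; 161 UMIs), a ratio of 0.699 (0.513 to 0.965), in a comparison where 7.66% of 2975 genes were 2-fold or more higher and 7.73% lower. Blood endothelium-like cells were at 553 CPM (24 UMIs) and 591 CPM (77 UMIs), with a ratio of 1.07 (0.669 to 1.77). For comparison, the Timp3 ratio of basal squamous-like cells was 2.57 for the class, and from 0.438 to 3.06 in their shared clusters. Neither stromal class had the many-fold difference of the suprabasal and luminal-like classes, since the upper ends of the stromal intervals were 0.965 and 1.77. Depth there was low, with a median of 917 UMIs in control and 2512 in progesterone fibroblast-like cells. Both classes may be mixed. Smooth muscle markers came next in the fibroblast-like cluster, with Acta2 among its top genes. Lymphatic endothelium markers came next in the blood endothelium-like cluster, with Ccl21a among its top genes. The part of such cells in the stromal ratios was not tested.

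The order of Timp3 levels in the control library was fibroblast-like, basal, luminal-like and suprabasal cells among classes with at least 50 cells, and the intervals of the last pair overlapped. With progesterone it was blood endothelium-like, fibroblast-like, suprabasal, luminal-like and basal among stromal and epithelial classes, with overlap only between the first pair. Macrophage-like cells had 0 and 1 Timp3 UMI and neutrophil-like cells 0 and 1. The small erythrocyte-like class (43 and 151 cells), which should lack Timp3, had 0 and 30 UMIs. The latter is 38.6 CPM (26.0 to 55.1), near the 36.9 CPM of progesterone basal cells, with 80.0% of the 30 in 10 cells. That class also carried basal squamous markers, which summed to 5658 CPM with progesterone against 14251 CPM in the basal class. How far the basal level stands above background was not tested.

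Timp2 was the member with the most UMIs. It was highest in fibroblast-like cells, with 2295 CPM (1987 to 2638) in control cells against 1556 CPM (1428 to 1691) in progesterone cells and a ratio of 0.678 (0.575 to 0.801). Blood endothelium-like cells gave 829 and 438 CPM, a ratio of 0.528 (0.342 to 0.825). Both stromal classes thus had less Timp2 by CPM with progesterone, neither by 2-fold or more.

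In luminal-like cells Timp2 was at 177 CPM (162 to 193) and 302 CPM (291 to 313), a ratio of 1.71 (1.55 to 1.88) for the class as a whole. Both luminal-like clusters with at least 50 cells in each library went the other way. In the cluster led by Prap1 it was at 399 and 125 CPM, a ratio of 0.314 (0.251 to 0.391), and in the one led by Postn at 202 and 86.4 CPM, a ratio of 0.429 (0.278 to 0.669). Few cells held much of these counts. In the Prap1 cluster 10 cells held 41.7% of 247 control UMIs, 48 of them in 1 cell, and 30.4% of 125 progesterone UMIs. In the Postn cluster 10 cells held 61.1% of 36 and 39.7% of 58 UMIs. The cluster led by Psca and Lcn2, with 274 control and 35 progesterone cells, went with the class. Timp2 was at 104 and 147 CPM there, a ratio of 1.42 (1.05 to 1.89). The progesterone level of the class came mainly from clusters with next to no control cells, at 484 CPM (1776 UMIs) in the Clca1 and Olfm4 cluster and 239 CPM (1019 UMIs) in the Agr2 and Muc5b cluster. In the progesterone library Timp2 and Timp3 therefore had opposite orders in these 2 luminal-like clusters. By CPM, Timp2 was 2.03-fold (1.88 to 2.19) higher in the Clca1 and Olfm4 cluster, whereas Timp3 was 7.45-fold (5.81 to 9.69) higher in the Agr2 and Muc5b cluster.

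In basal squamous-like cells Timp2 was at 21.4 CPM (17.9 to 25.3) and 51.4 CPM (48.0 to 55.0), a ratio of 2.41 (2.00 to 2.91). Inside the shared basal clusters the ratio was from 0.593 (cluster 18, 106 and 62.6 CPM) to 1.50 (cluster 4, 19.4 and 29.2 CPM), so that none of them reached 2-fold. Suprabasal squamous-like cells were at 6.99 CPM (23 UMIs) and 28.3 CPM (193 UMIs), a ratio of 4.06 (2.63 to 6.55), but at 22.8 and 28.3 CPM within cluster 0, a ratio of 1.24 (0.736 to 2.27). Sorting by keratin UMIs gave 23.3 and 16.1 CPM, the opposite direction. The small erythrocyte-like class, which also carried basal squamous markers, had Timp2 at 17.8 CPM (4 UMIs) and 46.3 CPM (36 UMIs; 32.4 to 64.1). These values are near the basal levels, and the latter is above the suprabasal one. How far the squamous Timp2 levels stand above background was not tested. Among immune cells, Timp2 was at 253 and 244 CPM in neutrophil-like cells (ratio 0.964, 0.684 to 1.37) and at 147 and 234 CPM in macrophage-like cells (ratio 1.59, 1.17 to 2.19), where 4.07% of 5817 genes were 2-fold or more higher and 6.81% lower. Of the genes of neutrophil-like cells 7.4% were higher and 5.26% lower.

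Timp1 was sparse. In basal squamous-like cells, which held most of its UMIs, control cells gave 13.7 CPM (11.0 to 16.9; 86 UMIs) and progesterone cells 5.06 CPM (4.03 to 6.27; 83 UMIs), with a ratio of 0.369 (0.270 to 0.505). By CPM fibroblast-like cells stood higher, at 34.8 (7.17 to 102) and 28.2 (13.5 to 51.8), and the control interval overlapped the basal one. Among the shared basal clusters, Timp1 was lower with progesterone in cluster 2, at 16.7 and 2.26 CPM (ratio 0.135, 0.050 to 0.316). It was also lower in the cell cycle cluster, at 26.7 and 6.74 CPM (ratio 0.252, 0.114 to 0.533). In cluster 7, with 5 control UMIs, it was at 19.9 and 5.10 CPM (ratio 0.257, 0.099 to 0.848). Cluster 18 was at 13.2 CPM (3 UMIs) and 6.59 CPM (32 UMIs), with a ratio of 0.499 (0.156 to 2.55), an interval that includes 1. Cluster 10 held 1 and 2 Timp1 UMIs. After thinning, 2.94% of 988 control and 0.978% of 3069 progesterone basal cells held a Timp1 UMI. Macrophage-like cells had one in 0 of 59 and 3 of 119 cells, but they cannot be taken to lack Timp1. How far the progesterone basal share stands above background was not tested.

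In luminal-like cells Timp1 was at 14.3 CPM (39 UMIs) and 2.48 CPM (25 UMIs), a ratio of 0.174 (0.101 to 0.295). That control level rests on few cells, because 10 cells held 84.6% of the 39 UMIs. Of the 39, 37 were in the cluster led by Psca and Lcn2 (274 and 35 cells). Timp1 was at 19.5 and 20.7 CPM there, a ratio of 1.06 (0.450 to 2.24), an interval too wide to call the libraries alike. The 9 progesterone UMIs of that cluster were in 5 cells, and 1 cell held 5 of them. Fibroblast-like cells gave 34.8 CPM (3 UMIs) and 28.2 CPM (10 UMIs), and suprabasal cells 2 and 4 UMIs. At this depth no difference was detectable in these.

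**Figure D5:**
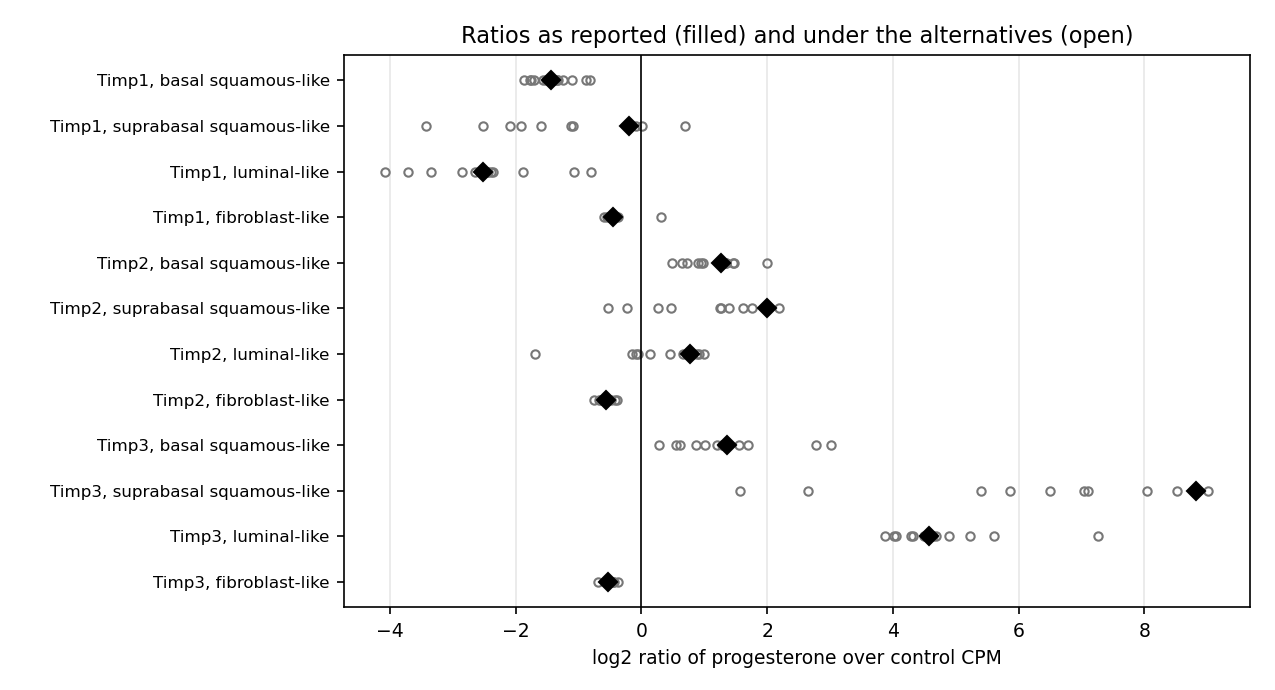
Log2 ratio of progesterone over control CPM (horizontal axis) for each gene in 4 cell classes, as reported (filled diamonds) and under each alternative processing (open circles). Every Timp3 circle lies above 0 in the 3 epithelial classes and below 0 in fibroblast-like cells, whereas Timp2 has circles on both sides of 0 in luminal-like and suprabasal squamous-like cells.

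Other inhibitors of these enzymes were near absent from the epithelium. Timp4, the remaining TIMP, and Reck, a membrane-anchored MMP inhibitor, had 0 UMIs in suprabasal squamous-like cells of both libraries. In fibroblast-like cells Timp4 was at 0 and 16.9 CPM (6 UMIs) and Reck at 34.8 CPM (3 UMIs) and 33.8 CPM (12 UMIs). Syn3, on the strand opposite to Timp3, had 1 and 50 UMIs in suprabasal squamous-like cells (0.304 and 7.34 CPM) and 2 and 53 in luminal-like cells. Its counts moved in the same direction as those of Timp3 at a small part of their level, and whether they are reads of Timp3 was not tested, since the use of strand in counting is not given in the sources used here.

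Among 13 secreted MMPs, few had 20 UMIs in any epithelial class. In basal squamous-like cells 0 of 3 were 2-fold or more higher and 1 lower, which was the gelatinase Mmp2, at 8.13 CPM (51 UMIs) and 0.670 CPM (11 UMIs), a ratio of 0.082 (0.039 to 0.160). Suprabasal squamous-like cells had 1 of 2 higher (Mmp11) and 1 lower (Mmp2, 23 and 2 UMIs). Luminal-like cells had 1 of 3 higher (Mmp11, 3 and 45 UMIs) and 2 lower, Mmp23 and the epithelial enzyme Mmp7, the latter at 84.1 CPM (230 UMIs) and 7.84 CPM (79 UMIs), a ratio of 0.093 (0.071 to 0.121). Of all genes tested in these classes, 8.82%, 23.1% and 19.4% were higher and 6.63%, 5.65% and 7.49% lower. Mmp2 was also at a lower level in cluster 0 (10.6 and 0.294 CPM, 7 and 2 UMIs) and in basal cluster 2 (8.35 and 0.644 CPM, 14 and 2 UMIs), below the 20 UMIs needed for a call, and the other 4 shared basal clusters held at most 5 UMIs in either library. Mmp7 and Mmp23 went the other way in the luminal-like cluster led by Prap1, where both were higher with progesterone (0 and 27 UMIs for Mmp7, 6 and 26 UMIs for Mmp23), while the one led by Postn had 5 and 0 Mmp7 UMIs. In fibroblast-like cells, the main site of Mmp2, it was at 429 and 397 CPM (ratio 0.926, 0.641 to 1.37). None of the 2 secreted MMPs with 20 UMIs differed there by 2-fold, beside 7.66% of all genes higher and 7.73% lower. Mmp9, a gelatinase of neutrophil granules, was at 862 and 1112 CPM in neutrophil-like cells.

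The membrane enzyme Mmp14, partner of TIMP2 in activating pro-MMP2, was at 44.8 and 46.3 CPM in basal squamous-like cells (ratio 1.03, 0.900 to 1.19) and at 197 and 206 CPM in fibroblast-like cells (ratio 1.04, 0.610 to 1.89). None of the membrane-type MMPs with 20 UMIs (2 of 6 genes in basal, 2 in luminal-like and 1 in fibroblast-like cells) differed by 2-fold there. Of all genes in these classes, 8.82%, 19.4% and 7.66% were 2-fold or more higher and 6.63%, 7.49% and 7.73% lower. In suprabasal squamous-like cells Mmp14 was at 17.6 and 42.7 CPM (ratio 2.43, 1.82 to 3.27), 1 of 2 higher, but within cluster 0 alone neither reached 2-fold. Of all genes 23.1% were higher and 5.65% lower in that class, and 9.83% and 6.20% in cluster 0.

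Of 9 ADAM genes, 6 had 20 UMIs in each epithelial class. Of these 1 was 2-fold or more higher in basal, 3 in suprabasal and 2 in luminal-like cells, and none was lower, beside 8.82%, 23.1% and 19.4% of all genes higher. In the shared luminal-like cluster led by Prap1, 0 of 6 were higher and 2 lower, Adam8 and Adam15 (126 and 61.0 CPM), although Adam15 was one of the 2 higher in the luminal-like class as a whole. Of all genes in that cluster 13.7% were higher and 9.86% lower. Adam28 was the most abundant in the suprabasal class with progesterone, at 23.4 CPM (77 UMIs) and 130 CPM (882 UMIs), a ratio of 5.54 (4.38 to 7.08), and it was not 2-fold higher within cluster 0. Adam10, a sheddase of Notch receptors and cadherins, was at 112.6 and 69.2 CPM in luminal-like cells, and basal cells gave 61.5 and 38.1 CPM. Adam17, the sheddase of TNF and EGF receptor ligands that TIMP3 inhibits, was at 24.2 and 21.9 CPM in the basal layer (ratio 0.906, 0.747 to 1.10) and 22.2 and 29.7 CPM in the suprabasal one (ratio 1.34, 1.02 to 1.77).

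ADAMTS enzymes, which cut proteoglycans and other matrix proteins, had no gene of 10 with 20 UMIs in suprabasal squamous-like cells. In luminal-like cells 1 of 3 was higher, Adamts9, at 0 UMIs and 8.34 CPM (84 UMIs), and 2 were lower, Adamts1 and the ADAMTS-like gene Adamtsl4 (28.9 and 2.18 CPM, ratio 0.076, 0.045 to 0.123). Of all genes of that class 19.4% were higher and 7.49% lower. No ADAMTS gene had 20 UMIs in the luminal-like clusters led by Prap1 or Postn, which both libraries filled. The aggrecanase Adamts5 led the list in fibroblast-like cells, at 243 and 378 CPM (ratio 1.55, 0.975 to 2.59). There 0 of 4 differed by 2-fold, beside 7.66% of all genes higher and 7.73% lower.

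Of 6 genes whose proteins bind TIMPs, 5 had 20 UMIs in basal squamous-like cells. Of these 1 was 2-fold or more higher and 0 lower, beside 8.82% and 6.63% of all genes. The higher gene was Efemp1, the matrix protein fibulin-3 that binds TIMP3, at 7.97 CPM (50 UMIs) and 33.0 CPM (542 UMIs), a ratio of 4.15 (3.10 to 5.66). Among the basal clusters that both libraries filled, Efemp1 was called 2-fold or more higher in cluster 7 only. In fibroblast-like cells Efemp1 was at 696 and 719 CPM. Cd63, a tetraspanin and TIMP1 receptor, was at 218 and 262 CPM in basal cells, and at 263 and 417 CPM in the luminal-like class. Lrp1, an endocytic receptor that takes up TIMPs, was at 487 and 265 CPM in fibroblast-like cells (ratio 0.544, 0.374 to 0.803).

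Of 12 genes of matrix that these proteases cut, 7 had 20 UMIs in basal squamous-like cells, and 0 were 2-fold or more higher and 5 lower, beside 8.82% and 6.63% of all genes. Among them were the anchoring fibril collagen Col7a1 (236 and 77.1 CPM, ratio 0.327, 0.303 to 0.352), fibronectin Fn1 and the laminin chains Lama3 (70.3 and 29.6 CPM) and Lamb3 (142 and 57.8 CPM). The hemidesmosome collagen Col17a1 was at 316 and 333 CPM. In fibroblast-like cells 0 of 6 differed by 2-fold, beside 7.66% of all genes higher and 7.73% lower, with Col3a1 at 2991 and 2232 CPM (ratio 0.746, 0.648 to 0.862).

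Levels of the members were compared with those of 8399 other genes over 35 points, each a cluster in a library with at least 50 cells, from 22 clusters. Points share libraries and depth, so these correlations of log2(CPM + 10) only describe likeness. The genes most like Timp3 were the transcription factor Klf9 (r = 0.84), the microfibril protein Fbn1 (0.81), Zadh2 (0.80), the transcription factor Nfia (0.79) and Tshz1 (0.79). Nearest to Timp2 were the TGF-beta receptor Tgfbr2 (0.89), Fndc3a (0.88), Pttg1ip (0.88), Tapbp (0.86) and Cdk14 (0.83). Timp1 was most like the secreted protease Htra1 (0.77), the matrix protein Sparc (0.72), St3gal2 (0.72), Ipo9 (0.71) and Fstl1 (0.70). Among themselves the members were less alike, with r of 0.32 for Timp1 and Timp2, 0.28 for Timp1 and Timp3 and 0.41 for Timp2 and Timp3.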

How the data were processed

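The authors deposited 1 matrix of raw UMI counts for each group, per the file headers, made with Cell Ranger 3.0.2 and build mm10 per the submitters' processing notes. No barcode in it was under 500 UMIs. Cells were kept from 200 genes upward if mitochondrial genes made up no more than 20% of UMIs, and 181 control and 680 progesterone doublets (Scrublet in scanpy 1.11.5, 0.8% per 1000 cells) were left out. The libraries were clustered together (2000 variable genes, 30 components, 15 neighbours, Leiden resolution 1, seed 1) and named from fixed markers. Clustering settings and naming rules were changed over several rounds after clusters and Timp values had been seen. The members and gene lists were chosen with earlier results of these data known.

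UMIs were summed per class and library. Levels have exact Poisson, shares Clopper-Pearson and ratios conditional binomial 95% intervals (scipy 1.17.1), and log2 ratios add 0.5 count. Named genes were the members, the highest gene of each list per class, and the one with the largest ratio, with others added after their values were seen. Calls are 2-fold with at least 20 UMIs. Alternatives were the cell filter, doublets, resolution, separate clustering, scaling, averaging, thinning, the low-count filter and, added after the data were seen, seeds, unit variance, the reference for top genes, shared clusters, keratin sorting and UMI steps. The steps were tested on simulated data. One gene of the matrix list is not reported here.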

Additional observations from a re-analysis of the deposited data

Results flagged for a closer look

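The progesterone over control ratio of Timp3 and of Timp2 pointed in different directions in different cell classes, with counting intervals that did not include 1. For Timp3 the ratio was above 1 in suprabasal squamous-like (675), luminal-like (25.2) and basal squamous-like cells (2.57) and below 1 in fibroblast-like cells (0.699). For Timp2 it was above 1 in suprabasal squamous-like (4.06), basal squamous-like (2.41), luminal-like (1.71) and macrophage-like cells (1.59) and below 1 in fibroblast-like cells (0.678). The Timp2 directions depended on the grouping, as the log2 ratio turned in luminal-like cells under 4 of 13 alternatives (-1.69 in shared clusters alone) and in suprabasal cells under 2 of 11 (-0.53 with keratin sorting, -0.23 with the stricter filter). With 1 library per group the difference between classes was not tested.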

How the results depend on the processing

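Values here are log2 ratios. No paired analysis was possible because each group has a single library, and for the same reason no replicate could be left out. Of the alternatives to the main comparisons, 104 stayed within the counting interval, 44 moved outside it and 8 reversed. Timp3 kept its sign in basal (13 alternatives), luminal-like (13), suprabasal (11) and fibroblast-like cells (11), and seeds 3 and 4 gave no suprabasal ratio, with 8 and 9 progesterone cells. The seeds gave 82.1%, 81.8% and 74.2% of cells the same class name, unit variance 63.0% and the median-cluster reference for top genes 67.2%.

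The stricter filter gave Timp2 -0.23 in suprabasal and 0.92 in luminal-like cells, Timp3 1.56 in suprabasal cells, and -3.71 for Timp3 in suprabasal over basal progesterone cells. Without doublet removal Timp2 was 0.97 in basal and 0.47 in suprabasal cells, and Timp3 in suprabasal over basal progesterone cells 2.32. Resolution 2 gave Timp2 0.14 in luminal-like cells and 0.39 for Timp3 in the highest over the lowest rank of Krt10 plus Krtdap. Libraries clustered apart gave Timp3 5.40 in suprabasal cells and 0.73 in suprabasal over basal progesterone cells. The mean of each cell's CPM gave Timp2 0.49 in basal and 1.27 in suprabasal cells and Timp3 0.28 in basal cells.

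Seed 2 gave 0.95 for Timp2 and 1.02 for Timp3 in basal cells, 1.00 for Timp2 in luminal-like cells and -1.03 for Timp3 along the ranks. Seed 3 gave 0.73 for Timp2 and 0.61 for Timp3 in basal cells, and -3.35 for Timp1 and -0.057 for Timp2 in luminal-like cells. Seed 4 gave 0.89 for Timp2 and 0.87 for Timp3 in basal cells. Unit variance gave 1.25 for Timp2 and 2.65 for Timp3 in suprabasal cells, -3.72 for Timp1 and -0.091 for Timp2 in luminal-like cells, -2.37 for Timp3 in suprabasal over basal progesterone cells and -1.45 along the ranks. The median-cluster reference gave -0.89 for Timp1 and 3.01 for Timp3 in basal cells, -0.80 for Timp1 and -0.14 for Timp2 in luminal-like cells, and 2.08 for Timp3 in suprabasal over basal progesterone cells.

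Shared clusters alone gave 0.64 for Timp2 and 0.55 for Timp3 in basal, 0.27 and 6.49 in suprabasal cells, and -1.07 for Timp1 and -1.69 for Timp2 in luminal-like cells. Keratin sorting gave -0.82 for Timp1, 1.99 for Timp2 and 2.78 for Timp3 in basal cells, -0.53 for Timp2 and 5.86 for Timp3 in suprabasal cells, and -4.07, 0.46 and 7.27 for Timp1, Timp2 and Timp3 in luminal-like cells. It gave Timp3 in suprabasal over basal cells as -0.82 in control and 2.26 in progesterone. Cells with 6 or more against 0 UMIs of Krt10 plus Krtdap gave -0.46. The cause was not tested in any of these.

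A scaling without the most abundant genes shifted all log2 ratios by 0.20 in basal and suprabasal, 0.12 in luminal-like and 0.08 in fibroblast-like cells and turned no Timp direction in these classes except that of suprabasal Timp1, on 6 UMIs, from -0.20 to 0.002. Of alternatives to the shares and percentages given beside them, 34 moved and 19 did not. Of those to the log2 ratios of sparse values (Timp1 in suprabasal and fibroblast-like cells, and the ranks in control cells), 1 moved and 29 stayed within wide intervals. Depth limits the control suprabasal and luminal-like Timp3 levels, on 1 and 9 UMIs, and every Timp1 value outside basal cells.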
